A study of Mus musculus and Homo sapiens
Mus musculus with 14 samples.

Results

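The genes that build and supply the cilium were followed in barcoded tissue sections of mouse retina. They were chosen by gene symbol: every symbol beginning with Ift, Bbs or Nphp and a digit, and a list of named subunits, motors, transition zone proteins and cargo proteins. The rule gives 48 of the 24460 genes of the layer counts and 48 of the 18415 genes of the amacrine counts. Of these, 47 are protein-coding and 1, Ift88os, is an antisense transcript that shares the Ift88 name.

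Light-Seq reverse transcribes RNA inside a fixed section, attaches a DNA barcode by light to the cDNA of a chosen area, and counts unique molecular identifiers (UMIs), each standing for 1 cDNA molecule. Retinas came from CD1 IGS mice, wild type and at postnatal day 18, and no group carried a transgene or received a treatment. In 4 sections the outer nuclear layer (ONL, photoreceptor cell bodies), the bipolar cell layer (BCL) and the ganglion cell layer (GCL) were barcoded, which gave 12 libraries. In 5 other sections a few tyrosine hydroxylase-positive (TH+, dopaminergic) amacrine cells and neighbouring TH- amacrine cells were barcoded, which gave 10 libraries. Per the study, each layer or cell group had its own barcode strand and barcoding round. A difference between groups therefore cannot be told apart from one between strands or rounds. The 4 layer sections were cut from 1 mouse and the study treats the amacrine sections as technical replicates too, so the errors and p-values cover the spread between sections and not between animals. Cells of the mouse fibroblast line 3T3, grown in 3 wells mixed with a human line that the labels call HEK293T and the study's methods HEK293, served as a non-neural comparison. The layer libraries held 193869 to 801105 UMIs and the 3T3 wells 135565 to 206187. The TH- libraries held 134394 to 200344 UMIs and the TH+ libraries only 30317 to 87449, so that 1 UMI in a TH+ library weighs between 11.4 and 33.0 CPM (UMIs of a gene per 1000000 UMIs of the library). Each layer held its marker genes, with 12 rod genes at 8.12% ± 0.683 of UMIs in ONL, 9 bipolar genes at 0.721% ± 0.0332 in BCL, 10 ganglion cell genes at 0.536% ± 0.0257 in GCL, and 5 dopaminergic genes at 0.325% ± 0.101 in TH+ libraries (SD over sections, n = 4 for layers and 5 for TH+). The rod genes also made up 1.93% ± 0.416 of UMIs in BCL and 0.733% ± 0.179 in GCL (SD, n = 4).

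A cilium is a microtubule rod covered by its own membrane that projects from most vertebrate cells. Its proteins are made in the cell body and carried along it by intraflagellar transport (IFT) trains, of which IFT-B with the kinesin-2 motor moves outward and IFT-A with dynein-2 moves back. The BBSome is a coat that moves membrane proteins, and the transition zone is a gate at the base, built from the MKS and NPHP modules on scaffolds such as CEP290. In a photoreceptor the transition zone is drawn out into the connecting cilium, and the outer segment beyond it is a greatly enlarged cilium that renews its discs throughout life. Inherited defects in many of these genes cause retinal degeneration, alone or within syndromes such as Bardet-Biedl, Joubert and Senior-Løken.

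Promoters are shown for 4 genes on which the layer results turn: Bbs5 and Tulp1, which stood at a high ratio of ONL over GCL, and the motor genes Kifap3 and Kif3a, which went the other way. Each is 300 bases from RefSeq on GRCm38.p6, from 250 before to 50 after the annotated start, on the strand of the gene. Capitals mark GTTGCC, part of the site of RFX factors, which are known regulators of cilium genes. TAATCC, the core site of the photoreceptor factors CRX and OTX2, was searched as well and is in none of these 4.
Bbs5 (chr2:69646921-69647220, plus strand): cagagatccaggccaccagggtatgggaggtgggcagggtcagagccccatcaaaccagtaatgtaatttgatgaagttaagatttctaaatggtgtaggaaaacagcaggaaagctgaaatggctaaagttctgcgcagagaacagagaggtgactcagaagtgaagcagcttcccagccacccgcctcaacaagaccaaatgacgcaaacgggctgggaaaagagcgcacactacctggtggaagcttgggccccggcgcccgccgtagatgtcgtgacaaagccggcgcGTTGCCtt
Tulp1 (chr17:28365167-28365466, minus strand): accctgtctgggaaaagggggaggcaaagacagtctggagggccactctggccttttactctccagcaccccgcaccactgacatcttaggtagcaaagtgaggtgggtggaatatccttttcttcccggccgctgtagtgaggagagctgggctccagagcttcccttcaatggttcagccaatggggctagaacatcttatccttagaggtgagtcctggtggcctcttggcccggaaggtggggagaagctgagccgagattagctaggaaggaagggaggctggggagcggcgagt
Kifap3 (chr1:163779333-163779632, plus strand): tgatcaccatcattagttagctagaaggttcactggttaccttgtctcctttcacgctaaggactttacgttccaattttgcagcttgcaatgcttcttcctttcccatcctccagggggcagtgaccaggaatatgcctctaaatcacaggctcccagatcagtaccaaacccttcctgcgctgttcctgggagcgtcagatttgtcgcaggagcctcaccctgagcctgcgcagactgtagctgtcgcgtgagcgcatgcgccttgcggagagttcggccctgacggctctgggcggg
Kif3a (chr11:53567119-53567418, plus strand): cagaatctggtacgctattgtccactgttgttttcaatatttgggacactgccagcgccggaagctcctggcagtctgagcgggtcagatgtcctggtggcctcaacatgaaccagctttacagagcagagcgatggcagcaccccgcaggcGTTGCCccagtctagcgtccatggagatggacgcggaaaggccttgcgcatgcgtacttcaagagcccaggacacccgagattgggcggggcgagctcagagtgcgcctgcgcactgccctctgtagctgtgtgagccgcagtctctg
Over both strands, GTTGCC was found in the promoters of 21 of the 41 cilium genes that have an entry (51.2%), against 14.1% of all 27025 genes with one. The share was much the same for the 21 cilium genes called higher in ONL than in both other layers (52.4%) and for the other 20 (50%). By window, since some genes have several starts, the shares were 42.9% of 49 and 12.5% of 32851. TAATCC was found for 1 of the 41 genes (2.44%) against 8.14% of all genes. The 2 motifs do not overlap in their letters, a match describes these letters only, and Tulp1 and Kifap3 each held no match to either in this window. Ift122, Ift80, Ift81, Ift88os and Tmem67 had no entry.

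The cilium genes were together most abundant in ONL. Their summed level was 5114 ± 266 CPM in ONL, 2375 ± 195 in BCL and 1829 ± 139 in GCL (SD, n = 4), and the 4 ONL libraries, at 4871 to 5419 CPM, lay above every library of the other layers. A single gene, Tulp1, supplied 38.8% ± 1.51 of the UMIs of the set in ONL, 21.0% ± 3.61 in BCL and 10.4% ± 1.94 in GCL. Without it the sums were 3128 ± 138, 1871 ± 74.0 and 1638 ± 106 CPM, and the order of the layers stayed the same. In bulk libraries such as these, fewer cells of a type and less RNA per cell cannot be told apart.

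**Figure D1:**
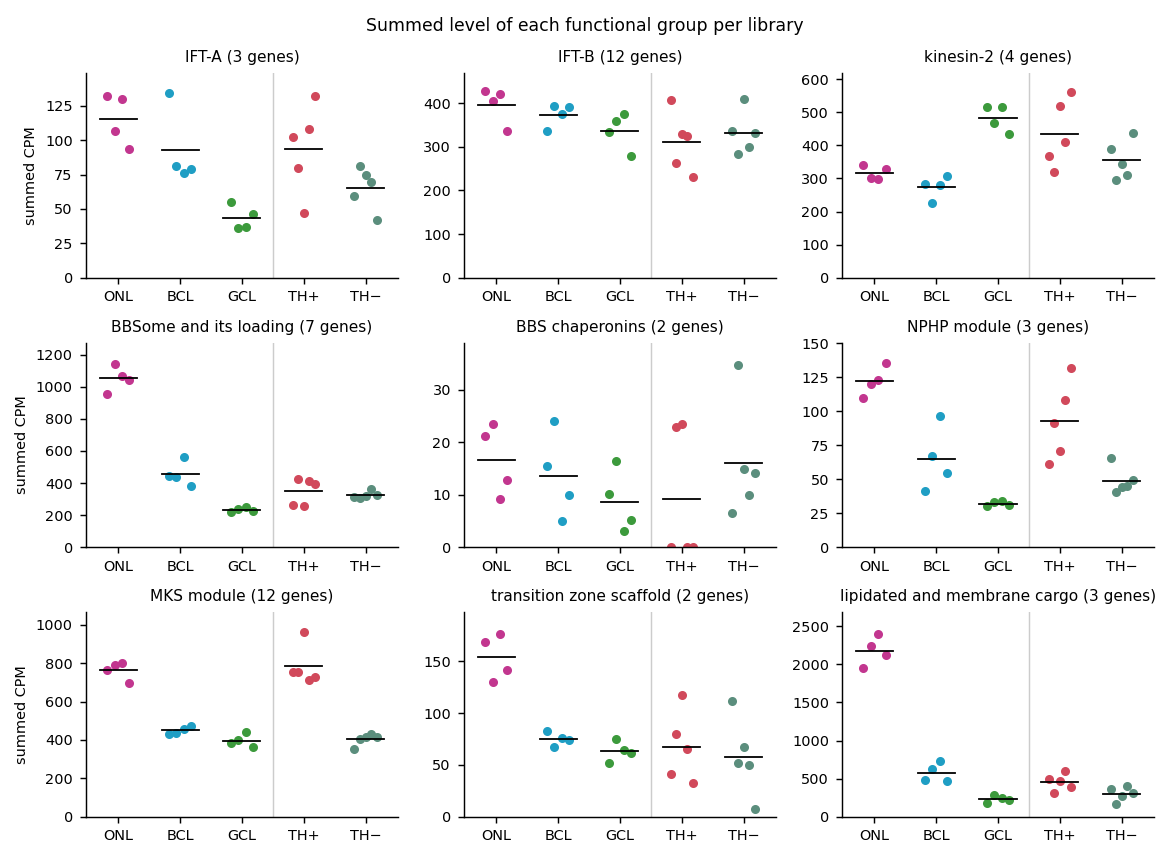
Summed CPM (y axis, from 0) of the 9 functional groups in each library (points) with the group mean (line), for the layers ONL, BCL and GCL (n = 4) and for TH+ and TH- amacrine cells (n = 5), which were separate experiments. On plain library totals, the BBSome and cargo genes stand highest in ONL and the IFT-B sums of the 3 layers overlap. The kinesin-2 sum is highest in GCL.

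Gene by gene, 45 of the 48 passed the filter on low counts in the layers and Bbs12, Kif17 and Ift88os did not. ONL against BCL called 26 of the 45 higher in ONL and 1 higher in BCL by edgeR's quasi-likelihood test at an adjusted p of 0.05. Among all 11324 genes tested, 36.7% were called in this comparison, 18.5% higher in ONL and 18.2% higher in BCL. The median log2 fold change of the 45 was 1.05, and that of all genes 0.09. ONL against GCL called 27 higher in ONL and 2 (Kifap3 and Kif3a) higher in GCL, where 61.5% of all genes were called, 29.3% higher in ONL and 32.2% higher in GCL, and the medians were 1.49 for the 45 and 0.00 for all genes. BCL against GCL called 11 higher in BCL and 2 higher in GCL, where 36.5% of all genes were called, 16.1% higher in BCL and 20.4% higher in GCL, and the medians were 0.35 and -0.02. The count of 11 fell to 7 without BCL replicate 2 or BCL replicate 3 and to 6 with no filter on low counts. Scaled by plain column totals instead of TMM, all genes split into 1198 higher in ONL and 2889 higher in BCL, against 2096 and 2056, and into 2353 higher in BCL and 1872 higher in GCL, against 1826 and 2310. The 3 comparisons share libraries, so their counts are not independent of each other.

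**Figure D2:**
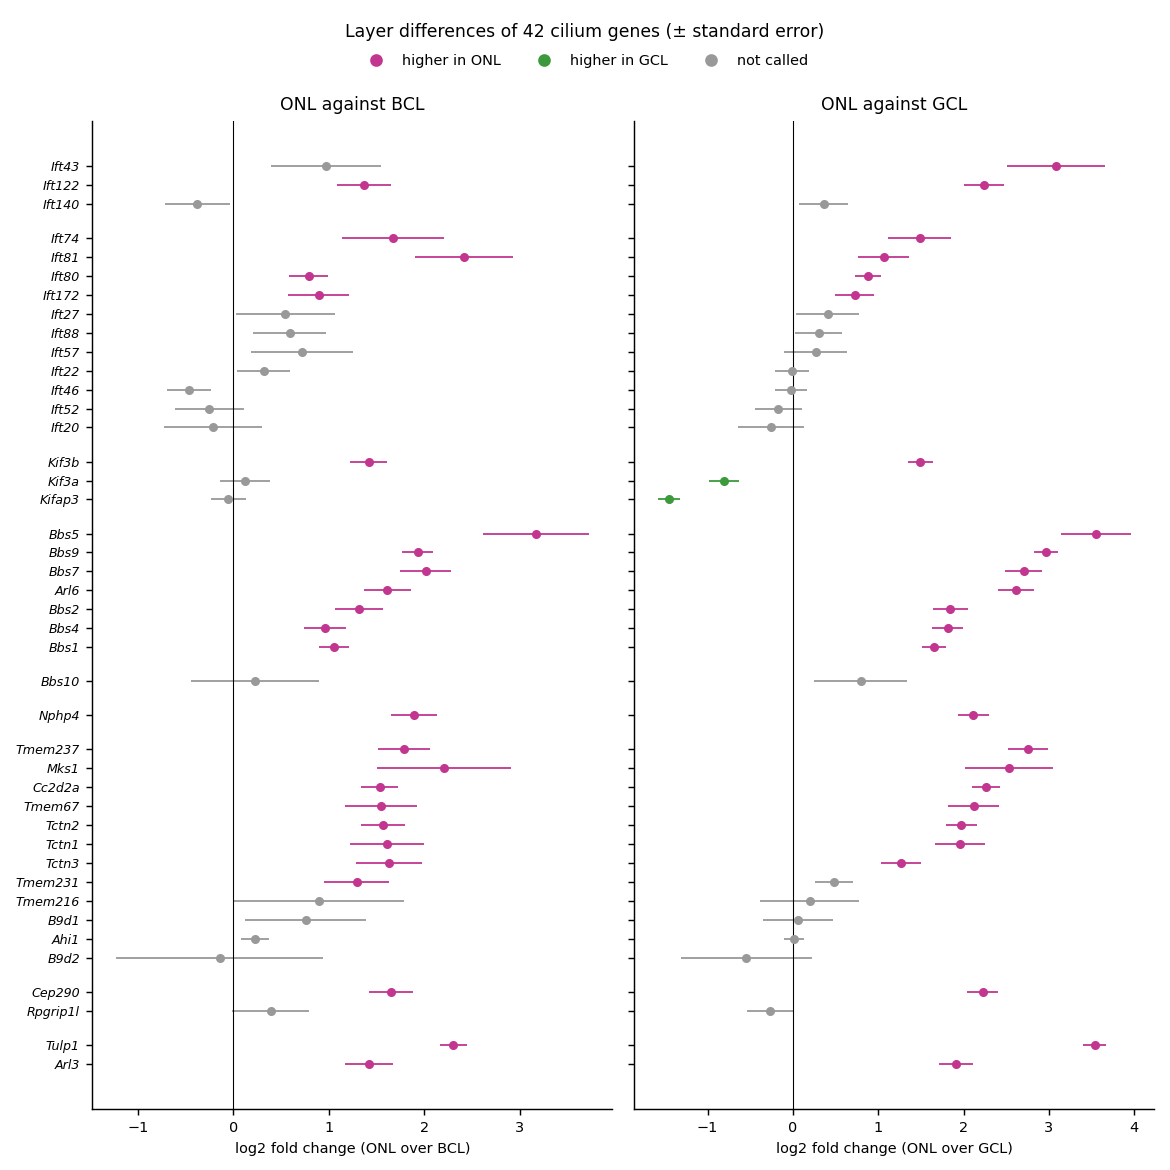
Log2 fold change with its standard error (x axis) of 42 of the 45 tested cilium genes, ONL over BCL (left) and ONL over GCL (right), with genes (y axis) grouped from top to bottom as IFT-A, IFT-B, kinesin-2, BBSome, BBS chaperonin, NPHP, MKS, scaffold and cargo. Colours mark the layer in which a gene was called higher, and Kifap3 and Kif3a are the 2 genes called higher in GCL.

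All 3 cargo genes were higher in ONL than in BCL, and all 3 were higher in ONL than in GCL. Of all genes tested, 18.5% were higher in ONL than in BCL and 29.3% higher in ONL than in GCL. Tulp1 encodes a photoreceptor tubby-like protein needed to bring rhodopsin to the outer segment, and lies on the minus strand at chr17:28570489-28584196 of GRCm39. It counted 1784, 2051, 2153 and 1959.8 CPM in the 4 ONL libraries, 423, 528, 676 and 391 in BCL, and 139, 234, 226 and 167 in GCL. No library of one layer overlapped another layer, and ONL was 4.93-fold above BCL (log2 fold change 2.30 ± 0.14, standard error, adjusted p = 4.4e-20) and 11.6-fold above GCL (3.54 ± 0.14, adjusted p = 1.5e-28). BCL was in turn above GCL by 1.23 ± 0.16 on the log2 scale (adjusted p = 3.0e-09). Per kilobase of exon Tulp1 was also the most abundant of the 48 genes, at 298 ± 23.5 CPM per kb in ONL, followed there by Bbs9 at 63.1 ± 2.73 and Arl6 at 53.3 ± 5.24 (SD, n = 4).

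Rod marker genes moved between the layers along with Tulp1. For every 1000 UMIs of the 12 rod genes, Tulp1 had 24.5 ± 0.923 UMIs in ONL, 26.0 ± 2.53 in BCL and 26.2 ± 2.33 in GCL (SD, n = 4), and the ranges of the 3 layers overlapped. Kifap3, set against the same rod UMIs, ranged from 1.06 to 1.72 in ONL and from 34.2 to 57.6 in GCL. By this measure a gene of equal CPM in both layers would rise too, since the rod share falls. The mean CPM of Kifap3 was 100 in ONL and 317 in GCL. As a share of its ONL level in CPM, the summed rod list stood at 23.8% in BCL and 9.03% in GCL, with single rod genes from 17.4% to 31.3% and from 6.30% to 11.4%. By the same measure, looked up after the values were seen, 3 of the 45 tested cilium genes lay within the range of the rod genes in GCL, among them Bbs5 (8.90%) and Tulp1 (9.64%), and the other 42 lay above it. In BCL 6 of the 45 lay within or under that range, and 39 above it. The part of rod RNA in the BCL and GCL levels was not tested.

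**Figure D3:**
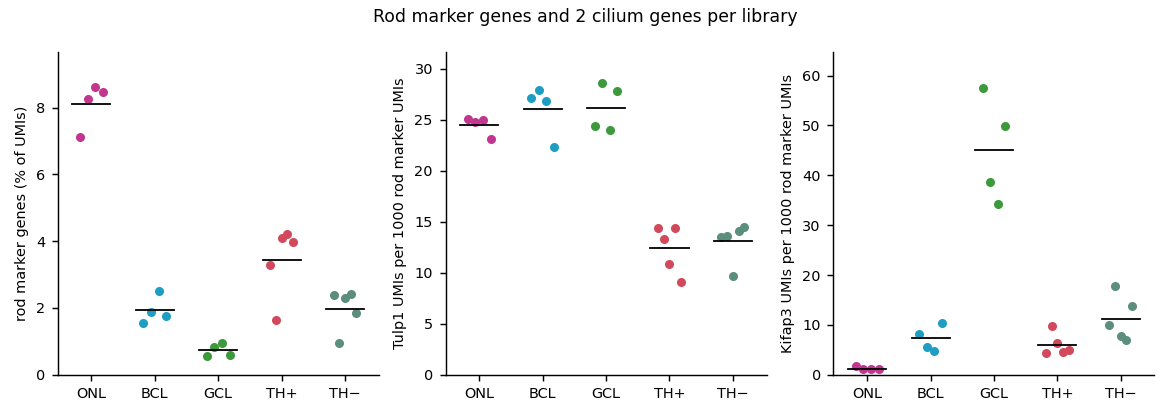
Share of UMIs from 12 rod marker genes in percent (left), and UMIs of Tulp1 (middle) and Kifap3 (right) per 1000 rod marker UMIs, per library (points) with group means (lines), in ONL, BCL, GCL (n = 4) and TH+ and TH- amacrine cells (n = 5). Tulp1 holds near 24.5 to 26.2 in the 3 layers and 12.4 to 13.1 in the amacrine libraries. Kifap3 rises from ONL to GCL, where the rod share it is set against is lower.

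Arl3 encodes a small GTPase that releases lipidated proteins from their carriers inside the cilium. Arl3 gave 96.1, 112, 153 and 87.0 CPM in ONL, 36.1, 72.0, 35.6 and 64.3 in BCL, and 30.6, 36.0, 23.1 and 44.4 in GCL. ONL lay above all other libraries, by 1.42 ± 0.25 over BCL (adjusted p = 3.9e-06) and 1.91 ± 0.20 over GCL (adjusted p = 2.4e-12), while BCL and GCL overlapped (adjusted p = 0.215).

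All 7 genes of the BBSome and its loading were higher in ONL than in BCL, where 18.5% of all genes were. All 7 were higher in ONL than in GCL as well, where 29.3% of all genes were. The log2 fold changes of the 7 ran from 0.96 to 3.17 and from 1.65 to 3.55. Their sum was 1051 ± 78.4 CPM in ONL, 455 ± 74.8 in BCL and 234 ± 14.4 in GCL (SD, n = 4). Bbs9, a scaffold subunit of the coat, had 377, 415, 399 and 384 CPM in ONL, 165, 96, 178 and 84.0 in BCL, and 54.8, 67.4, 58.4 and 44.4 in GCL. The layers did not overlap, and Bbs9 fell from ONL to BCL by 1.93 ± 0.16 (adjusted p = 5.5e-15) and from BCL to GCL by 1.03 ± 0.21 (adjusted p = 6.9e-05) on the log2 scale. Arl6, the GTPase that recruits the coat to membranes, had 101, 127, 109.6 and 109.6 CPM in ONL, 15.5, 38.4, 81.3 and 49.4 in BCL, and 22.9, 19.5, 21.5 and 17.1 in GCL. Its ONL libraries were tight and its BCL libraries spread so widely that the lowest fell below all of GCL. Arl6 was higher in ONL by 1.61 ± 0.25 over BCL (adjusted p = 3.3e-07) and 2.61 ± 0.21 over GCL (adjusted p = 5.7e-16). Bbs7, a further core subunit, had 78.6, 108, 121 and 103 CPM in ONL, 25.8, 48.0, 35.6 and 14.8 in BCL, and 16.6, 15, 18.4 and 18.8 in GCL. Every ONL library was above the others, and Bbs7 exceeded BCL by 2.01 ± 0.27 (adjusted p = 1.4e-08) and GCL by 2.7 ± 0.22 (adjusted p = 5.3e-16). Bbs5, a subunit that binds membrane lipids, had the largest fold over BCL of the 45, with 29.7 to 47.0 CPM in ONL, 0 to 10.2 in BCL and 0 to 5.99 in GCL, and log2 fold changes of 3.17 ± 0.56 and 3.55 ± 0.41 that rest on few UMIs outside ONL. BCL was above GCL for 4 of the 7 genes (Bbs9, Bbs1, Bbs4 and Arl6), where 16.1% of all genes were. Arl6 lost that call without BCL replicate 3, Bbs4 without BCL replicate 2 and Bbs1 with no filter on low counts.

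The chaperonin-like genes that help assemble the BBSome were hardly detected. Bbs10 counted 12.5, 15.2, 6.85 and 0 CPM in ONL, 10.3, 19.2, 5.08 and 9.89 in BCL, and 8.92, 15, 0 and 1.71 in GCL. The layers overlapped, and neither ONL comparison called it (adjusted p = 0.835 and 0.205), though without GCL replicate 2 it was called higher in ONL than in GCL (1.51, adjusted p = 0.0358). Bbs12 was below the filter, at 8.74, 8.30, 2.28 and 12.9 CPM in ONL, 5.16, 4.80, 0 and 0 in BCL, and 1.27, 1.5, 3.07 and 3.41 in GCL. Those values are 1 to 7 UMIs per ONL library, too few to set the layers apart.

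**Figure D4:**
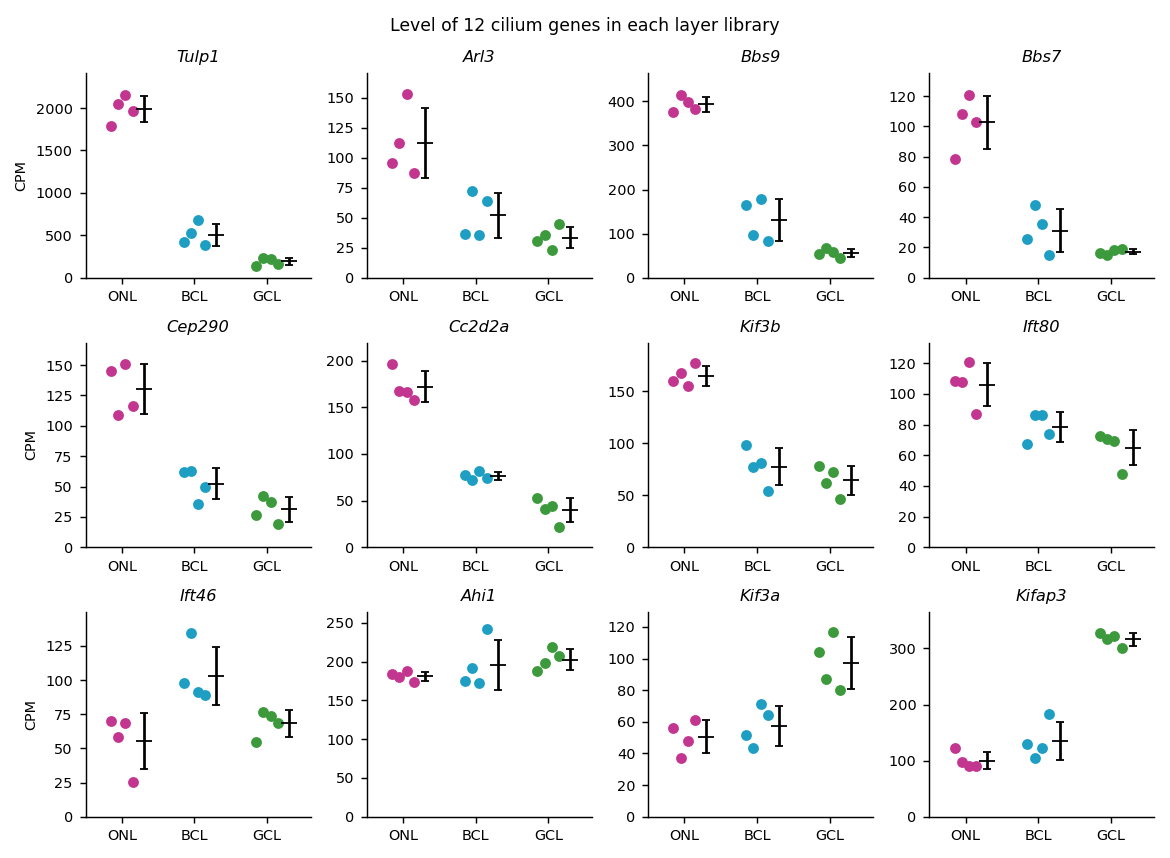
CPM (y axis, from 0, scale set per gene) of 12 cilium genes in the 4 libraries of ONL, BCL and GCL (points), with mean and SD (black). The first 8 genes are highest in ONL, Ift46 is lowest in 1 ONL library, Ahi1 was called in no pair of layers, and Kif3a and Kifap3 are highest in GCL.

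Of the 11 tested IFT-B genes, 4 (Ift74, Ift80, Ift81 and Ift172) were higher in ONL than in BCL and 7 were not called, and against GCL the counts were again 4 (Ift74, Ift80, Ift81 and Ift172) and 7. That is 36.4% of the tested IFT-B genes in each comparison, where 18.5% of all genes were higher in ONL than in BCL and 29.3% higher in ONL than in GCL, and a difference between the IFT-B genes and the other groups was not tested. Their sum over 12 genes was 397 ± 42.3 CPM in ONL, 374 ± 26.8 in BCL and 337 ± 41.7 in GCL (SD, n = 4), and the layers overlapped. These sums use plain column totals, while the tests scale by TMM. A TMM-scaled sum of the IFT-B genes was not made. Ift80, a subunit of the peripheral part of the train, had 109, 108, 121 and 87.0 CPM in ONL, 67.1, 86.4, 86.4 and 74.2 in BCL, and 72.6, 70.4, 69.2 and 47.8 in GCL. The lowest ONL library stood just above the highest BCL library, and ONL exceeded BCL by 0.79 ± 0.20 (adjusted p = 0.00145, lost at 0.44 with plain column totals) and GCL by 0.88 ± 0.16 (adjusted p = 2.8e-06). Ift81, which with IFT74 binds tubulin, had 31.2, 30.4, 32.0 and 41.9 CPM in ONL, 5.16, 0, 15.2 and 9.89 in BCL, and 17.8, 7.49, 27.7 and 17.1 in GCL. All ONL libraries were above the rest, and the log2 fold changes were 2.42 ± 0.51 over BCL (adjusted p = 1.1e-04) and 1.06 ± 0.30 over GCL (adjusted p = 0.00162). Ift74 lost its call against BCL under plain column totals and without BCL replicate 2. Ift172 lost its own under DESeq2, under plain column totals and without ONL replicate 1, BCL replicate 1 or BCL replicate 4, and its call against GCL without ONL replicate 1.

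Ift22 and Ift46 were the most abundant IFT-B genes per length and were not called. Ift22, a small GTPase of the train also known as Rabl5, had 56.2, 36.0, 45.7 and 41.9 CPM in ONL, 51.6, 38.4, 35.6 and 59.3 in BCL, and 49.7, 59.9, 55.3 and 41.0 in GCL. The layers overlapped throughout (log2 fold change 0.32 ± 0.28 against BCL and -0.01 ± 0.20 against GCL). Ift46, a core subunit that carries outer dynein arms in motile cilia, had 69.9, 58.1, 68.5 and 25.8 CPM in ONL, 98.0, 134, 91.5 and 89.0 in BCL, and 54.8, 76.4, 73.8 and 68.3 in GCL. BCL libraries were all above the others, and ONL against BCL gave -0.46 ± 0.23 (adjusted p = 0.112). That value was called, as higher in BCL, with DESeq2's size factors, with plain column totals and without ONL replicate 1. The antisense transcript Ift88os had 1 UMI in each of 2 ONL libraries and none in BCL and GCL.

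In the IFT-A train, Ift122 was higher in ONL than in both other layers and Ift140 was called against neither. Ift122, a core subunit, had 77.4, 69.2, 82.2 and 67.7 CPM in ONL, 56.7, 14.4, 40.7 and 34.6 in BCL, and 22.9, 13.5, 20.0 and 12 in GCL. ONL was clear of the others, by 1.37 ± 0.28 over BCL (adjusted p = 6.4e-05) and 2.24 ± 0.23 over GCL (adjusted p = 3.4e-12). Ift43, a small peripheral subunit, had 20.0, 15.2, 13.7 and 9.67 CPM in ONL, 5.16, 9.60, 0 and 24.7 in BCL, and 3.82, 1.5, 1.54 and 0 in GCL. It exceeded GCL by 3.08 ± 0.57 (adjusted p = 6.4e-06, and by 3.75 without GCL replicate 1) and overlapped BCL (0.97 ± 0.57, adjusted p = 0.193), where BCL replicate 4 was highest. Without that library Ift43 was called against BCL (1.93, adjusted p = 0.0411). Both genes were called higher in BCL than in GCL, and each of these calls was lost under 6 of the alternatives tried.

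The kinesin-2 motor that pulls the trains outward is made of KIF3A, KIF3B and the accessory protein KAP3, encoded by Kifap3, and its 3 genes went different ways. The same motor also carries cargo in axons. Kifap3 (chr1:163607152-163747943 of GRCm39, plus strand) had 122, 96.8, 91.3 and 90.3 CPM in ONL, 129, 106, 122 and 183 in BCL, and 327, 316, 323 and 301 in GCL. GCL libraries were tight and far above the rest, by 1.45 ± 0.13 over ONL (adjusted p = 1.6e-14) and 1.4 ± 0.16 over BCL (adjusted p = 7.7e-11) on the log2 scale, while ONL and BCL overlapped (-0.05 ± 0.18, adjusted p = 0.866). Per kilobase of exon Kifap3 was the most abundant of the 48 genes in GCL, at 78.9 ± 2.92 CPM per kb, ahead of Ahi1 at 28.8 ± 1.87 and Tulp1 at 28.7 ± 6.89 (SD, n = 4), which overlapped each other. Kif3a had 56.2, 37.3, 47.9 and 61.2 CPM in ONL, 51.6, 43.2, 71.1 and 64.3 in BCL, and 104, 86.9, 117 and 80.3 in GCL. It too was highest in every GCL library, by 0.81 ± 0.18 over ONL (adjusted p = 7.8e-05) and 0.93 ± 0.23 over BCL (adjusted p = 7.7e-04). Kif3b had 159.8, 167, 155 and 177 CPM in ONL, 98.0, 76.8, 81.3 and 54.4 in BCL, and 77.7, 61.4, 72.2 and 46.1 in GCL. It was highest in ONL, by 1.42 ± 0.19 over BCL (adjusted p = 1.8e-08) and 1.49 ± 0.15 over GCL (adjusted p = 5.1e-13), and BCL and GCL overlapped (0.08 ± 0.22). Kif17, a separate kinesin-2 of some cilia and dendrites, was below the filter, with 0 to 2 UMIs per library in ONL, 0 to 1 in BCL and 2 to 5 in GCL. These 3 motor genes kept their calls against ONL under each of the alternatives tried.

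At the transition zone, the MKS module gave 8 of 12 genes higher in ONL than in BCL and 7 of 12 higher in ONL than in GCL. Of all genes tested, 18.5% and 29.3% were higher in ONL in these 2 comparisons. The module forms a membrane-bound complex that limits which proteins enter. Cc2d2a had 196, 167, 167 and 158 CPM in ONL, 77.4, 72.0, 81.3 and 74.2 in BCL, and 52.2, 40.5, 44.6 and 22.2 in GCL. The layers did not overlap, and ONL exceeded BCL by 1.53 ± 0.20 (adjusted p = 3.8e-09) and GCL by 2.26 ± 0.16 (adjusted p = 6.2e-18). Tmem237, a membrane protein of the module, had 84.9, 104, 135 and 74.1 CPM in ONL, 41.3, 43.2, 50.8 and 9.89 in BCL, and 17.8, 15, 16.9 and 15.4 in GCL. ONL was again highest (1.79 ± 0.28, adjusted p = 3.4e-07, and 2.75 ± 0.23, adjusted p = 2.5e-15), and 1 BCL library lay below GCL. Tctn1, Tctn2, Tctn3, Tmem67 and Mks1 were higher in ONL in both comparisons, with log2 fold changes from 1.55 to 2.21 over BCL and from 1.26 to 2.53 over GCL. Mks1 lost its call against BCL under DESeq2. Tmem231 was called over BCL (1.29 ± 0.34, adjusted p = 0.0017) and missed the threshold against GCL (0.48 ± 0.22, adjusted p = 0.0556), where 4 of the alternatives called it. B9d1, B9d2 and Tmem216, each at 19.2 CPM or less in every layer library, were not called. ONL replicate 3 held 7 of the 8 UMIs of B9d2 in ONL, and without it B9d2 was called higher in GCL than in ONL (-2.82, adjusted p = 0.0237).

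Ahi1, whose product jouberin binds the module and which is the gene of a Joubert syndrome with retinal disease, was called in no pair of layers. The gene lies at chr10:20828393-20956329 of GRCm39, plus strand. It had 183, 179.8, 187 and 174 CPM in ONL, 175, 192, 173 and 242 in BCL, and 187, 198, 218 and 207 in GCL. BCL overlapped both other layers, while every GCL library lay above every ONL library in CPM by a narrow margin, 187.3 at the lowest against 187.2 at the highest. After TMM scaling the log2 fold changes were 0.23 ± 0.15 for ONL over BCL (adjusted p = 0.256) and 0.01 ± 0.12 for ONL over GCL (adjusted p = 0.934). Over 14 alternatives the latter ran from -0.16 to 0.05 and was not called. With 1112 UMIs over the 12 libraries, it was among the most deeply counted of the 48 genes.

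In the NPHP module, which lies nearer the axoneme, Nphp4 was higher in ONL in both comparisons. Nphp4 had 94.9, 111, 112 and 116 CPM in ONL, 30.9, 43.2, 40.7 and 29.7 in BCL, and 25.5, 27.0, 30.7 and 27.3 in GCL. ONL stood clear, by 1.89 ± 0.24 (adjusted p = 3.2e-09) and 2.11 ± 0.18 (adjusted p = 5.3e-15).

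The scaffolds split. Cep290, which links the microtubules to the membrane along the connecting cilium, had 145, 109, 151 and 116 CPM in ONL, 61.9, 62.4, 35.6 and 49.4 in BCL, and 26.8, 42.0, 36.9 and 18.8 in GCL. ONL stood clear while BCL and GCL overlapped, and Cep290 exceeded BCL by 1.65 ± 0.23 (adjusted p = 3.5e-08) and GCL by 2.22 ± 0.19 (adjusted p = 1.6e-15). In a later gene annotation than the one the study counted with, exons of genes on the other strand cover 20.6% of its exon length. The study gives default settings for featureCounts in its standard pipeline and does not spell them out. As that tool is known to work, its defaults ignore strand and leave a read unassigned where it overlaps exons of several genes. Reads from such a stretch would be missing from its count if the study's annotation held those genes too, which was not checked. The same holds for Arl6, B9d1, Bbs2, Ift20, Ift74, Tctn1 and Tmem67, the other genes with over 10% of such overlap. Rpgrip1l had 23.7, 20.8, 25.1 and 25.8 CPM in ONL, 20.6, 4.80, 40.7 and 24.7 in BCL, and 25.5, 33.0, 27.7 and 42.7 in GCL. The layers overlapped and it was not called (0.39 ± 0.40 and -0.27 ± 0.27).

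In the amacrine sections 19 of the 48 genes passed the filter, and TH+ against TH- cells called 1 of them, Ahi1. Among all 6021 genes tested, 0.83% were called, 0.747% higher in TH+ and 0.083% higher in TH-. Ahi1 had 429, 606, 706, 519 and 396 CPM in the TH+ libraries and 158, 237, 208, 239.6 and 254 in the TH- libraries of the same sections. Every TH+ library lay above every TH- library, and the log2 fold change was 1.29 ± 0.20 (2.45-fold, adjusted p = 2.6e-05). The call held under each alternative tried, with log2 fold changes from 1.19 to 1.36 when 1 library was left out. No cilium gene was called higher in TH- cells by edgeR or by DESeq2, which gave 1 of the 19 no adjusted p, and by edgeR none had an unadjusted p under 0.05 in that direction, against 4 higher in TH+ (Ahi1, Kif3a, Tulp1 and Bbs9). How many of all genes stood at that unadjusted p in each direction was not counted, so the 4 are not set apart from all genes.

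The next smallest p-values belonged to Kif3a and Tulp1. Kif3a had 102, 114, 212, 86.5 and 231 CPM in TH+ and 59.2, 46.3, 96.7, 64.9 and 84.6 in TH- libraries. It was higher in TH+ in 5 of 5 sections, the ranges overlapped, and the change of 0.99 ± 0.35 did not pass the threshold (adjusted p = 0.255). Tulp1 had 469.6, 217, 447, 605 and 363 CPM in TH+ and 322, 127, 223, 339 and 268 in TH- libraries. It too was higher in 5 of 5 sections with overlapping ranges, and the change was 0.65 ± 0.24 (adjusted p = 0.307). With the section as a block Tulp1 was called (0.72, adjusted p = 0.0161), and it was called without TH+ replicate 2 as well. The 12 rod genes moved the same way, from 1.98% ± 0.623 of UMIs in TH- to 3.44% ± 1.08 in TH+ (SD, n = 5). For every 1000 rod UMIs, Tulp1 had 12.4 ± 2.32 in TH+ and 13.1 ± 1.95 in TH- libraries, and the part of rod RNA was not tested. Kifap3, with 143, 160.1, 259, 195 and 198 CPM in TH+ and 237, 168, 179, 169.7 and 254 in TH-, overlapped (-0.11 ± 0.26, adjusted p = 0.952). The remaining 29 of the 48 genes did not pass the filter on low counts and were not tested.

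**Figure D5:**
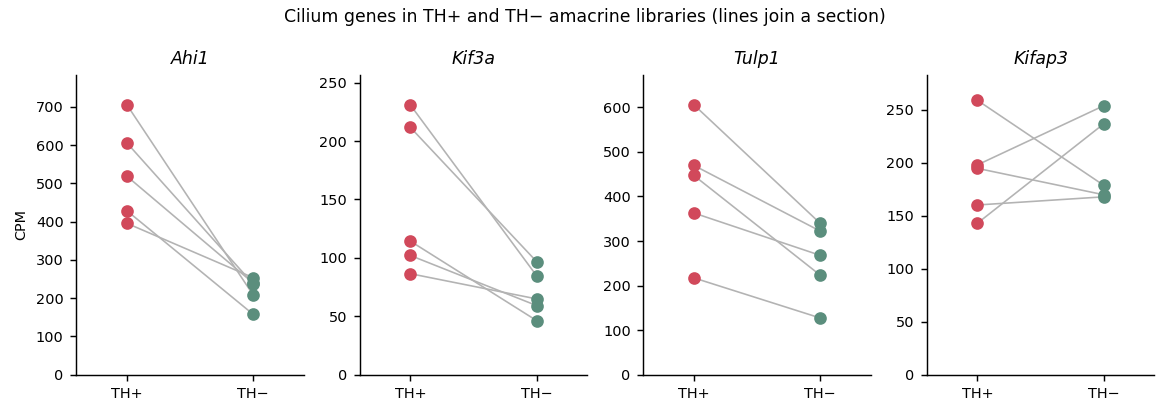
CPM (y axis, from 0, scale set per gene) of Ahi1, Kif3a, Tulp1 and Kifap3 in the 5 TH+ and 5 TH- amacrine libraries (points), with a line joining the 2 libraries of a section. Ahi1 is higher in all 5 TH+ libraries, at 396 to 706 CPM against 158 to 254, and Kifap3 shows no common direction.

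The 3T3 wells, a separate experiment set beside the retina without a test, gave a summed level of 688 ± 55.8 CPM (SD, n = 3). Of the 48 genes, 44 had at least 1 UMI there and Tulp1, Bbs10, Kif17 and Ift88os had none. A count of 0 among 540880 UMIs allows Tulp1 a level of up to 5.55 CPM (3 UMIs, counting error only). Bbs9 had 1 UMI in the 3 wells. Per kilobase of exon the most abundant was Ift74 at 14.5 ± 4.32 CPM per kb, and Kifap3 at 10.4 ± 2.16 came next (SD, n = 3). Both of these belong to the trains and their motor.

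A list of 46 symbols of the pathway's other genes, partners of the 48, had 43 in the layer counts and 39 that passed the filter. ONL was higher than BCL for 18 of them and lower for 1, higher than GCL for 24 and lower for 1, and BCL was higher than GCL for 6 and lower for 1. The genes higher in ONL were 46.2% of the 39 against BCL and 61.5% against GCL, where 18.5% and 29.3% of all genes were, and the 15.4% higher in BCL than in GCL lay near the 16.1% of all genes. DESeq2 called 12 of the 39 higher in ONL than in BCL, 20 higher in ONL than in GCL, 6 higher in BCL than in GCL and 0 higher in GCL than in BCL, and edgeR had 1 at an unadjusted p under 0.05 in the last of these. Their median log2 fold changes were 0.97 over BCL and 0.92 over GCL by edgeR. Rpgrip1, which tethers RPGR in the connecting cilium, had 472.5 ± 44.8 CPM in ONL and 34.4 ± 4.60 in GCL (log2 fold change 3.91 ± 0.14, adjusted p = 1.4e-29). Unc119, a carrier of myristoylated transducin, had 1942 ± 128 and 250.2 ± 57.9 CPM (3.12 ± 0.13). Lca5 had 119 ± 20.6 and 14.5 ± 2.45 CPM (3.15 ± 0.21), Cep164 had 126 ± 10.7 and 18.6 ± 3.58 CPM (2.89 ± 0.19), and Ttc8, also called Bbs8, had 184 ± 20.2 and 32.1 ± 14.7 CPM (2.67 ± 0.19), where means carry the SD of 4 libraries and fold changes the standard error. Anks6, an inversin-compartment protein, was the 1 gene higher in GCL than in ONL, at 10.1 ± 1.77 against 3.65 ± 4.04 CPM (-1.66 ± 0.60, adjusted p = 0.0142). It lost that call without ONL replicate 1 (adjusted p = 0.0771) or ONL replicate 2 (adjusted p = 0.0618) and stood at -2.37 without ONL replicate 4. Tulp3, the relative of Tulp1 that brings receptors into ordinary cilia, was the 1 gene higher in BCL than in ONL, at 47.4 ± 10.5 against 9.07 ± 3.78 CPM (-1.93 ± 0.39, adjusted p = 4.5e-05). It was named for its count of 1, after its values were seen. In the amacrine cells 14 of the list were tested and 0 were called by edgeR or by DESeq2, which gave 3 of them no adjusted p, with 4 at an unadjusted p under 0.05, each higher in TH+. The share of all genes at that unadjusted p was not counted here either.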

How the data were processed

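Sequencing was done by the authors on cDNA barcoded in place. The deposited counts are whole numbers of UMIs per gene made by the authors, who extracted UMIs with UMI-tools 1.1.1, aligned reads with STAR 2.7.9a to the mouse genome mm39 (GRCm39), assigned uniquely mapped reads to exons with featureCounts of Subread at its default settings and collapsed UMIs per gene, with SAMtools 1.9, per the labels and the study's methods and supplementary text. Random priming, in-place reverse transcription and the light mask can each shift which RNAs are counted, and a layer holds RNA of every cell and process inside its mask. Every column of the layer and amacrine tables was mapped to the labels, each 3T3 well had its own file, and the gene lengths deposited with the 3T3 counts served for levels per kilobase.

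CPM are UMIs per 1000000 of the library, from plain totals. Log2 fold changes, standard errors and p-values came from edgeR 4.0.16 (R 4.3.3), quasi-likelihood fit with TMM factors, in 1 fit over the 12 layer libraries and 1 over the 10 amacrine libraries, over all genes with a minimum count of 3 and a total of 10. Adjusted p-values follow Benjamini-Hochberg over all genes tested. The script was tested on simulated data. Alternatives were the Wald test of DESeq2 1.42.0, its size factors in edgeR, plain column totals, no filter, edgeR's default filter, each library left out, and the section as a block. Libraries of 1 section share a sample in the labels, which pairs them. The residual correlation of same-section libraries ran from 0.0116 to 0.0493 over 12 layer pairs and from 0.0287 to 0.257 over 5 amacrine pairs, 2 of them over 0.1. Between groups of different sections it ran from -0.0609 to 0.0431 over 36 layer pairs and from -0.117 to 0.0418 over 20 amacrine pairs. The main fits had no term for the section.

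The members, the role groups, the marker lists and the list of partners were chosen with earlier results of these data known. Library values are given for the 2 genes of each role group highest per length and the 2 with the smallest adjusted p in ONL against BCL or GCL, and for genes called or among the 3 smallest p in the amacrine cells, with Bbs5 added after its values were seen. The values of 3 genes of the set are not reported here, and counts over the set include them. Partners named are the 5 in each direction with the smallest adjusted p in ONL against GCL. Promoters were shown for genes chosen after their values were seen. Summary tables used python 3.11.15, pandas 2.3.3 and numpy 2.4.6, and figures matplotlib 3.10.9. The human counts, the pooled layer library and the deeper run of 1 culture were not used.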

Additional observations from a re-analysis of the deposited data

Results flagged for a closer look

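In 6 of 125 groups of 4 or 5 libraries, a single library lay farther from its neighbours than Dixon's 95% critical value allows, and chance alone flags about 5% of groups. Ift80 was at 47.8 CPM in GCL replicate 4 against 69.2 to 72.6 in the other GCL libraries. Ift81 was at 41.9 CPM in ONL replicate 4 against 30.4 to 32.0 in the others, and at 21.6 CPM in TH+ replicate 4, which is 1 UMI, against 0 in the other TH+ libraries. Cc2d2a was at 132 CPM in TH+ replicate 5 against 45.7 to 70.6, and at 89.3 CPM in TH- replicate 3 against 39.9 to 52.1. The summed level of the 48 genes was 1661 CPM in TH- replicate 2 against 1931 to 1999 in the other TH- libraries, and that library also held the smallest share of rod genes among TH- libraries, at 0.938% of UMIs, whose part in the value was not tested.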

How the results depend on the processing

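Counts of genes called higher in ONL stayed within 1.5 times under every alternative. Plain column totals moved the median of all genes by -0.34 (ONL against BCL), -0.17 (ONL against GCL) and 0.17 (BCL against GCL) on the log2 scale, and the medians of the cilium genes moved with them, to 0.71, 1.31 and 0.52, so that their distance from all genes stayed at 0.97, 1.48 and 0.37. Cilium genes higher in BCL than in ONL numbered 2 with DESeq2's size factors or column totals and 0 with edgeR's default filter, which tested 33 of them. That filter gave medians of 1.4, 1.84 and 0.45, and 0.71 over the 5 genes it left in TH+ against TH-. Without a filter, BCL against GCL gave 6 higher in BCL and a median of 0.17. Under TMM-scaled CPM the summed level was 5733 in ONL and 2116 in BCL.

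With 1 library left out, genes higher in BCL than in ONL numbered 1 to 2, and the median ran from 1.08 to 1.28 (ONL against BCL), 1.26 to 1.56 (ONL against GCL) and 0.16 to 0.35 (BCL against GCL). Genes higher in BCL than in GCL numbered 7 to 11, with 7 when BCL replicate 2 or BCL replicate 3 was left out. Genes higher in TH+ numbered 1 to 2, with 2 when TH+ replicate 2 was left out. The replicate block by section raised the genes higher in TH+ to 2, by Tulp1, and changed no other call among the 48 genes, while over all genes it called 96 higher in TH+ and 52 higher in TH-, against 45 and 5 without it. DESeq2 shared 25 of 27 calls in ONL against BCL, 29 of 29 in ONL against GCL, 13 of 13 in BCL against GCL and 1 of 1 in TH+ against TH-. The cause of these changes was not tested beyond the number of genes or libraries each alternative leaves. The TH+ libraries were the shallowest, and 29 of the 48 genes did not pass the filter over the 10 amacrine libraries.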
